A study of Mus musculus with 6 samples.

Results

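The regions described here are FXR ChIP peaks that were called in control liver and not in liver with Bcl6 deleted in hepatocytes, and that were at or above the median strength of the control list. They were chosen by the measured values themselves: a peak of the WT list entered when no LKO peak overlapped it by 1 bp, its Peak Score was at or above the list's median of 25.1, and its input value was at or under the list's 95th percentile of 1.85 on the log2 scale. Peak Score is the number of ChIP tags at the peak, pooled over libraries and scaled to 10000000 tags. Of 20040 WT peaks, 10122 (50.5%) had no overlapping LKO peak, 9091 met both limits, and 2120 met both limits and had no overlapping LKO peak. These 2120 are called control-only peaks below, and they made up 23.3% of the WT peaks under the limits. The other 6971 WT peaks under the same limits overlapped an LKO peak and serve as the comparison.

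The data were FXR ChIP-seq of C57BL/6 mouse liver, with 6 libraries in all. Control mice, called WT in the labels, were Bcl6 fl/fl, so both Bcl6 alleles were flanked by loxP sites and no Cre was present. The other mice, called LKO, were Alb-cre, Bcl6 fl/fl, in which Cre under the albumin promoter deletes Bcl6 in hepatocytes and leaves it in the other cells of the liver. Both genotypes thus carried the floxed alleles, and no treatment is given in the labels. The labels give neither the age nor the sex of these animals, nor the number of mice behind a library, and the study describes its control FXR tracks as from male livers. Each genotype had 2 ChIP libraries and 1 input library, which is chromatin sequenced without immunoprecipitation. Depth was uneven: the total was 19022618 tags for WT replicate 1 and 2883717 for WT replicate 2, and 21287263 and 22637613 for the LKO libraries. The WT list therefore rested mainly on replicate 1, which supplied 86.8% of its pooled tags.

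FXR, encoded by Nr1h4, is the nuclear receptor that senses bile acids in liver and intestine. It binds DNA with its partner RXR, classically at an inverted repeat of the hexamer AGGTCA with 1 base between the copies, called IR1, and it is known to repress bile acid synthesis and uptake and to promote export. BCL6 is a zinc-finger repressor that recruits corepressors, and in hepatocytes it is known for repressing genes of lipid metabolism and of the sex-biased, growth hormone-STAT5 programme. A related direct repeat of AGGTCA with 1 base between, called DR1, is the classical element of HNF4A and of PPARA with RXR.

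The control-only peaks with the closest IR1 sites are printed first, as the FXR element that the study's antibody target is known to bind. Bases are from the plus strand of GRCm38.p6, which has the coordinates of mm10, and the 13 bases of the site are in capitals with 20 bases on each side. Exact sites lay in 3 printed control-only peaks: nearest to Mir222 at chrX:19273025-19273077 (intergenic), nearest to Tcerg1l at chr7:138159989-138160041 (intergenic) and in the promoter of the non-coding RNA 4930474M22Rik at chr17:14399129-14399181. An exact site from a peak that overlapped an LKO peak, intergenic and nearest to Cnn3 at chr3:121378808-121378860, is shown for comparison. Grik3 (chr4:125437244-125437296), Ehd3 (chr17:73843174-73843226) and Mir491 (chr4:88184292-88184344) are the nearest genes of the 3 strongest control-only peaks whose site has 1 mismatch.
Mir222: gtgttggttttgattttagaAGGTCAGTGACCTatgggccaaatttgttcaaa
Tcerg1l: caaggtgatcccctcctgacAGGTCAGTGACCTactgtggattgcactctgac
4930474M22Rik: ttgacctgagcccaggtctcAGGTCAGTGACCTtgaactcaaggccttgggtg
Grik3: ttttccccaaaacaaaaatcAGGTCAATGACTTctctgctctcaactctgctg
Ehd3: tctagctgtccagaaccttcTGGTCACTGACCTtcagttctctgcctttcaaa
Mir491: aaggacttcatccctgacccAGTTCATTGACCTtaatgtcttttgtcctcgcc
Cnn3, overlapping peak: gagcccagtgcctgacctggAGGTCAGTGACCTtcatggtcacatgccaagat

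With positions counted from 1 at the first base of the site and the motif base given first, the differences were C12T at the Grik3 site, A1T at the Ehd3 site and G3T at the Mir491 site. Both WT libraries stood above the input at the printed sites, by the least at Tcerg1l. The Grik3 peak had 6.41 log2 tags in WT replicate 1, 6.53 in WT replicate 2 and 1.15 in the input, and a Peak Score of 94. The Mir222 peak, with an exact site, had 5.93, 6.10 and -0.21 and a Peak Score of 68.5. The Tcerg1l peak had 5.01 in replicate 1 and only 3.30 in the shallow replicate 2, with 1.01 in the input, so that peak rests mainly on replicate 1. An exact IR1 was rare in either set: 3 control-only peaks (0.142%, 95% Wilson interval 0.0481 to 0.415%) and 25 overlapping peaks (0.359%, 0.243 to 0.529%) had it within 100 bp of the peak centre. The intervals given below are of the same kind. They describe how precisely a share of this many peaks is known and say nothing about the spread between mice, and peaks of 1 library share their source.

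Control-only peaks were the weaker part of the WT list above its median. Their median Peak Score was 30.6 (10th to 90th percentile 26.0 to 46.1), against 46.1 (27.8 to 115.5) in overlapping peaks. The share of peaks that were control-only was 46.5% (44.4 to 48.7%) at Peak Scores of 25.1 to 30 and 0.609% (0.237 to 1.55%) from 120 up, where 4 of 657 peaks lacked an LKO peak. These shares follow in part from the rule, which sets a limit on the score and asks for a call in a second list, and they are given as a description. At the same WT scores of 25.1 to 30, the overlapping peaks had a median LKO Peak Score of 14.3 (10th to 90th percentile 10.0 to 22.1), while the lowest score in the LKO list was 8.88. Over all overlapping peaks the median ratio of LKO to WT Peak Score was 0.469 (10th to 90th percentile 0.320 to 0.702). Scores of both lists are scaled to the same tag total, so LKO scores were the lower at most shared peaks. The cause of this was not tested. With such ratios, a WT peak near the score limit may have an LKO score close to the lowest one listed. No LKO value is given at control-only positions in the tables used here, so an LKO signal just under the calling limits and no LKO signal cannot be told apart.

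**Figure D1:**
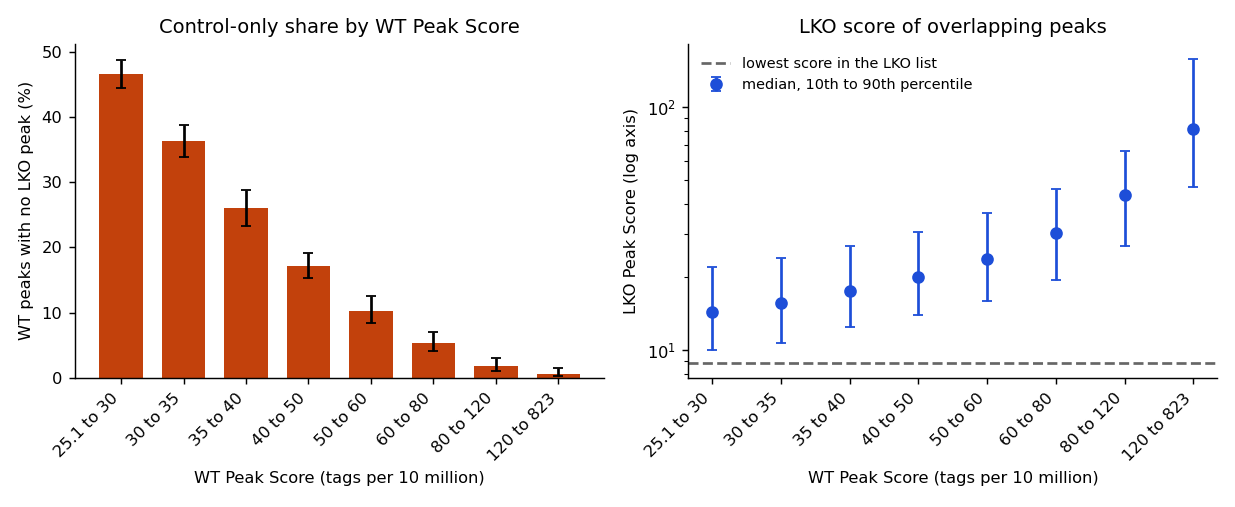
Left, share of WT peaks under the limits with no overlapping LKO peak (%, bars with 95% Wilson intervals) against WT Peak Score; right, LKO Peak Score of the overlapping peaks in the same bins on a log axis, as median with the 10th to 90th percentile, with the lowest LKO score of 8.88 dashed. The share runs from 46.5% in the weakest bin to 0.609% in the strongest.

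In the 2 WT libraries the control-only peaks stood well above input. The lower of the 2 ChIP values exceeded the input value at 2120 of 2120 peaks, by a median of 4.73 and at least 2.18 on the log2 scale, which the authors' filter against input requires in part. Median log2 tags were 4.67 in replicate 1 and 5.20 in replicate 2, against 5.26 and 5.80 in overlapping peaks. Replicate 2 lay above replicate 1 at 80.6% of control-only peaks (78.9 to 82.2%), and the difference between the libraries had an SD of 0.55 across them. The median control-only peak was estimated at 50.4 tags in replicate 1 and 10.98 in replicate 2, and 60.7% (58.6 to 62.8%) reached 10 tags in replicate 2, against 82.1% (81.2 to 83.0%) of overlapping peaks. Values of single peaks in replicate 2 thus carry the larger counting error. Just inside the score limit, 285 control-only peaks lay within 1 unit of it, and 225 peaks without an LKO overlap lay within 1 unit below it. Examples inside were peaks of Ext1, Hdgfl2 and Myo1e, each with a Peak Score of 25.1, and outside were peaks of Mir7676-2, Gli2 and Wbp1l, each with 24.7.

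Many control-only peaks lay close to an LKO peak that they did not touch. The nearest LKO peak was within 500 bp for 162 of them (7.64%, 6.59 to 8.85%), with the shortest distance at 4 bp, and within 5 kb for 35.5% (33.5 to 37.5%). For overlapping peaks, the next LKO peak besides the overlapping one was within 500 bp for 3.30% (2.91 to 3.75%) and within 5 kb for 29.4% (28.4 to 30.5%). That next peak was never closer than 174 bp, so the measures are unlike at short distances. The difference at 500 bp is not read as a result. At 50 kb both sets stood at 76.0% and 75.9%. For example, a peak 2694 bp upstream of Ppara lay 28 bp from an LKO peak with a score of 26.6. Since 1 peak caller places both lists, such pairs may be read as 1 site or as 2, and counting LKO peaks within 500 bp as shared left 1958 control-only peaks.

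IR1 was less frequent in control-only peaks than in overlapping ones, and DR1 was more frequent. Allowing at most 2 mismatches in its 12 fixed bases, IR1 was found up to 100 bp from the centre in 8.30% of control-only peaks (7.20 to 9.55%) and 17.7% of overlapping peaks (16.8 to 18.6%). Over all 20040 WT peaks the share was 11.8%, and windows 2 kb from the peaks held IR1 in 0.967% (0.714 to 1.31%) and 0.990% (0.838 to 1.17%). DR1, searched with the same allowance on both strands, lay in 15.8% (14.3 to 17.4%) of control-only and 12.6% (11.9 to 13.4%) of overlapping peaks, against 12.8% of all WT peaks and 3.18% and 3.44% of the 2 kb windows. IR1 and DR1 share their first hexamer, and 33 control-only peaks (1.56%) had both, against 2.50% of overlapping peaks. DR1 without IR1 lay in 14.2% (12.8 to 15.7%) of all control-only and 10.1% (9.46 to 10.9%) of all overlapping peaks. Leaving out peaks with both takes more from the overlapping set, so it widens the difference by itself. The single hexamer AGGTCA did not separate the sets, at 42.5% (40.4 to 44.6%) and 44.0% (42.9 to 45.2%).

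Because strength and motif content moved together, both motifs were also counted in 4 ranges of Peak Score, set at the quartiles of the control-only peaks (27.4, 30.6 and 37.0). In the lowest range, where both sets had a median score of 26.0, IR1 was in 7.33% (5.45 to 9.80%) of control-only and 10.8% (8.51 to 13.5%) of overlapping peaks. In the third range, at median scores of 33.3 and 33.8, the shares were 7.12% (5.25 to 9.58%) and 13.4% (11.6 to 15.6%). The highest range was not even in strength, with median scores of 44.3 and 60.3, and held IR1 in 10.2% (7.86 to 13.1%) and 20.3% (19.1 to 21.4%). Intervals of the 2 sets overlapped in the lowest 2 ranges and did not in the upper 2. For DR1 the control-only share was the higher in each range, 16.5%, 12.7%, 18.1% and 15.5% from low to high against 11.97%, 12.4%, 14.5% and 12.3%. The DR1 intervals of the 2 sets overlapped in each of the 4 ranges, by the least in the highest (12.6 to 18.9% and 11.4 to 13.3%).

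**Figure D2:**
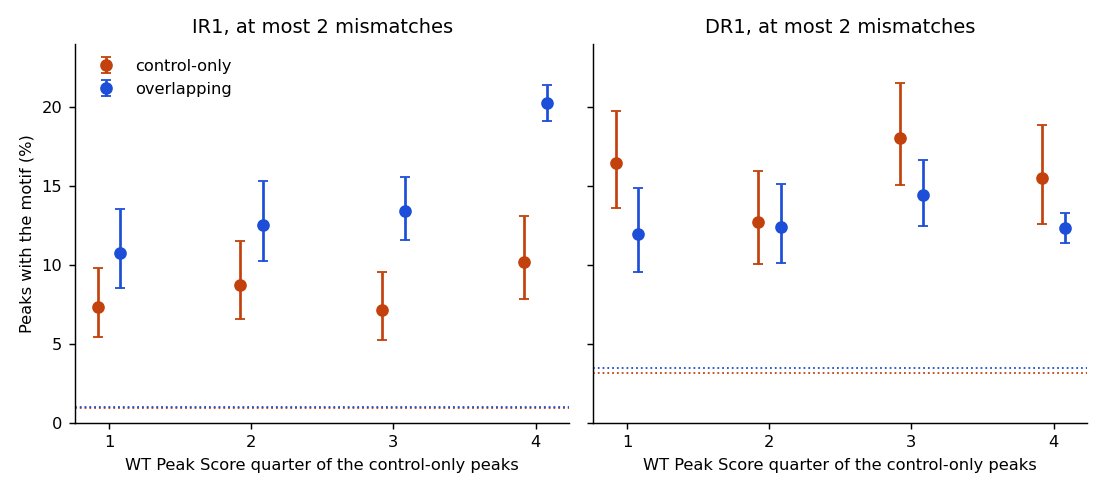
Share of peaks with IR1 (left) and DR1 (right) within 100 bp of the centre (%, points with 95% Wilson intervals) in 4 ranges of WT Peak Score set at the quartiles of the control-only peaks, for control-only and overlapping peaks; dotted lines are windows 2 kb away. The IR1 points of the control-only peaks lie under those of the overlapping peaks in each range, and the DR1 points lie over them.

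Where an IR1 was present it lay near the centre in both sets. The median distance from the centre was 17.5 bp in the 176 control-only peaks with IR1 and 13 bp in the 1231 overlapping ones, and 73.3% (66.3 to 79.3%) and 81.5% (79.2 to 83.5%) lay within 30 bp. The lower IR1 share was seen in each main class: promoters had IR1 in 5.84% (3.57 to 9.41%) of control-only and 10.2% (8.32 to 12.5%) of overlapping peaks, introns in 8.52% (6.87 to 10.5%) and 18.7% (17.4 to 20.03%), and intergenic peaks in 8.79% (7.02 to 10.96%) and 18.4% (16.9 to 19.96%). The promoter intervals overlapped and the others did not. The higher DR1 share was not seen in promoters, with 7.78% (5.09 to 11.7%) of control-only and 9.48% (7.63 to 11.7%) of overlapping peaks and overlapping intervals. In introns DR1 was in 17.6% (15.2 to 20.2%) and 13.2% (12.1 to 14.4%). In intergenic peaks it was in 16.7% (14.3 to 19.5%) and 12.7% (11.4 to 14.1%).

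Intervals of the 2 sets overlapped for each other liver motif counted, for HNF1 only narrowly. The HNF1 element, GTTAAT and ATTAA with 1 base between and at most 2 mismatches, lay in 8.16% (7.07 to 9.40%) of control-only and 6.57% (6.01 to 7.18%) of overlapping peaks, with overlapping intervals. The NR5A2 element TCAAGGTCA, which contains the hexamer and was allowed 1 mismatch, lay in 15.8% and 15.7%. The C/EBP pattern TTNNGNAA lay in 41.7% and 39.7%, the FOXA pattern TGTTTAC in 6.46% and 6.90%, and the AP-1 pattern TGANTCA in 7.92% and 7.76%. The pattern TTCNNNGAA, shared by STAT5 and BCL6, lay in 6.65% (5.67 to 7.79%) of control-only peaks, 6.14% (5.60 to 6.73%) of overlapping peaks, 6.56% of all WT peaks and 5.45% of windows 2 kb from control-only peaks. A letter match is a description of the sequence and not a bound site, and 51.6% (49.5 to 53.7%) of control-only peaks had none of IR1, DR1 or the hexamer, against 47.8% (46.6 to 48.9%).

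By genome class, control-only peaks lay slightly less in introns and slightly more between genes. Introns held 42.6% (40.6 to 44.8%) of them and 46.8% (45.7 to 48.0%) of overlapping peaks, while intergenic sequence held 37.5% (35.5 to 39.6%) and 34.8% (33.7 to 36.0%), with intervals that overlapped for intergenic sequence only. Promoters, from 1 kb upstream of a transcription start site (TSS) in the authors' annotation, held 257 control-only peaks, or 12.1% (10.8 to 13.6%), and 11.3% (10.6 to 12.1%) of overlapping peaks. Exons, 5' and 3' ends of genes and non-coding transcripts held at most 2.41% of control-only peaks each. Distance to the nearest TSS had medians of 12614 bp and 12928 bp. Repeats annotated at the peak were more frequent in control-only peaks, 18.9% (17.3 to 20.6%) against 15.1% (14.2 to 15.9%), and LTR elements accounted for 6.51% (5.54 to 7.64%) against 4.50% (4.04 to 5.02%). Satellites held 4 control-only and 0 overlapping peaks. On chromosome X, 9 of 63 peaks under the limits were control-only (14.3%, 7.70 to 24.97%), and the autosomes ranged from 19.7% on chromosome 7 to 27.3% on chromosome 10.

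**Figure D3:**
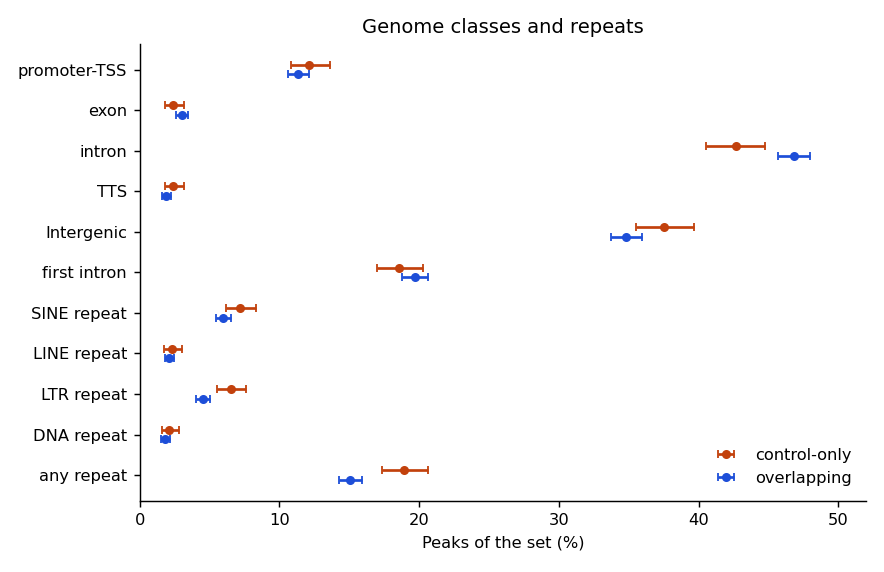
Share of control-only and of overlapping peaks (%, points with 95% Wilson intervals) in each genome class and repeat class of the authors' annotation; first introns are also counted within introns. Introns hold 42.6% and 46.8%, and annotated repeats 18.9% and 15.1%.

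The strongest control-only peak, with a Peak Score of 267.5, lay in an intron on chromosome 14 at 55079631-55079841, nearest to the antisense transcript Zfhx2os. It had 7.87 log2 tags in replicate 1, 8.35 in replicate 2 and 0.09 in the input. The nearest LKO peak was 12498 bp away, and no AGGTCA hexamer and no IR1 with fewer than 4 mismatches lay within 100 bp of its centre. It stood far above the next one, a satellite repeat peak on chromosome 9 at 3006725-3006935 nearest to Mir101c (score 163.9), where repeat sequence covered 100% of the central bases. The peak in intron 13 of Trrap, an adaptor of histone acetyltransferase complexes, had a score of 144.3, with 6.96, 7.36 and -0.04 in replicate 1, replicate 2 and input. The Trrap peak held 4 AGGTCA hexamers within 100 bp of its centre, 3 of them in the stretch around the centre, which is printed with the hexamers in capitals (chr5:144788025-144788125), above the same stretch of the Zfhx2os peak (chr14:55079686-55079786), which has none.
Trrap: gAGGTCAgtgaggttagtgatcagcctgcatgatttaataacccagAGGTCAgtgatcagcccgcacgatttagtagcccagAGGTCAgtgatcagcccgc
Zfhx2os: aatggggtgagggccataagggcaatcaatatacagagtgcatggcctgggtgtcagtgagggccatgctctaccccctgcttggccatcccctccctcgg

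The stretch in Trrap repeats a short unit, and its best IR1 differs from the motif at C11T and T13A. The 4th strongest peak, intergenic on chromosome 1 at 191921811-191922021, lay in an ERVK LTR nearest to 1700034H15Rik and had a score of 134.7. Next came a peak 2238 bp upstream of Osgin1, a gene of oxidative stress response, with a score of 105.9, 6.43 and 7.36 log2 tags in the replicates and -0.09 in the input. A peak in the promoter of Frat1, a regulator of WNT signalling, had a score of 99.5, with 6.46, 6.82 and -0.12. The other 4 of the strongest 10 were assigned to Capn8, Grik3, Chn1 and Alx4, with scores of 89.5 to 102.7. Of these 10 peaks, those at Chn1 and Alx4 had input values of 1.84 and 1.83, just under the limit of 1.85.

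Control-only peaks were assigned by the authors' annotation to 1769 genes, or 32.9% of the 5374 genes with a WT peak under the limits. Of these genes, 1486 had 1 control-only peak, 230 had 2 and 53 had 3 or more. Only 834 genes (15.5%) had control-only peaks and no overlapping peak under the limits. Genes with no LKO peak of any strength were fewer, 594 or 11.1% of all genes under the limits. For 1178 of the 1769 genes, or 66.6% (64.4 to 68.8%), the LKO list held a peak assigned to the same gene. Over all genes with a WT peak under the limits that share was 88.9% (88.1 to 89.8%). The lower share follows in part from the rule, since every gene without a control-only peak has an overlapping one. Of the 1769 genes, 935 also had an overlapping peak under the limits. Genes with more peaks have more chances to hold a control-only peak, and genes with one had a mean of 2.30 peaks under the limits against 1.39 for the others, so gene groups are compared by peaks below.

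Some stretches of the genome gathered control-only peaks. Of the 2120, 307 (14.5%, 13.05 to 16.04%) had another within 10 kb and 716 (33.8%, 31.8 to 35.8%) within 50 kb. The densest 250 kb stretch was on chromosome 8 at 126578778-126808850, between Irf2bp2, a corepressor, and the uncharacterised A630001O12Rik. It held 9 control-only peaks among 17 WT peaks under the limits, and 10 LKO peaks. Among the 5 densest stretches, the 1 on chromosome 1 at 182587799-182817362 differed in that 6 of 6 peaks under the limits were control-only and the LKO list held 0 peaks. Its peaks lay in introns of Capn8, a calpain protease, and Susd4, a complement inhibitor, 3 in each gene. The strongest, in intron 7 of Capn8, had a score of 102.7, with 6.53 log2 tags in replicate 1, 6.76 in replicate 2 and 1.16 in the input. The stretch on chromosome 15 at 85705620-85787837 held Ppara and the let-7 gene Mirlet7b, with 6 control-only peaks, 7 overlapping peaks and 11 LKO peaks. These stretches were chosen for their counts, which are a description.

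Single genes with the most control-only peaks were A630001O12Rik with 6, Rbm47 with 5, and Fabp1, Irf2bp2 and Sik1 with 4 each. Rbm47 encodes an RNA-binding cofactor of apolipoprotein B mRNA editing, and its 5 peaks had scores of 32.4 to 53.9 beside 8 overlapping peaks. Sik1, a kinase that restrains cAMP-driven gluconeogenic transcription, had 4 peaks with scores of 32.4 to 37.4 beside 8 overlapping peaks. The A630001O12Rik peaks had scores of 31.5 to 58.9 and the Irf2bp2 peaks 26.0 to 42.0. Of these, 1 Sik1 peak lay 44 bp, 1 Irf2bp2 peak 209 bp and 1 A630001O12Rik peak 392 bp from an LKO peak, so these 3 counts would be lower by 1 with LKO peaks within 500 bp counted as shared. Fabp1 was the exception among these genes, since all 4 of its peaks under the limits were control-only, 1 of them 139 bp from an LKO peak.

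Over 3 lists of bile acid genes, 14 control-only peaks were assigned to 12 genes, and 64 overlapping peaks to 29 genes. The share of control-only peaks was 13.04% (3 of 23, interval 4.54 to 32.1%) for synthesis, 23.5% (8 of 34, 12.4 to 39.996%) for transport of bile acids and lipids, and 14.3% (3 of 21, 4.98 to 34.6%) for FXR and FGF feedback, beside 23.3% of all peaks under the limits, which each of the 3 intervals included. The 14 peaks were weak members of the set, with Peak Scores of 25.6 to 37.9 and a median of 27.6, against 50.7 for the overlapping peaks of these lists. Replicate 1 ranged from 4.17 to 5.04 log2 tags, replicate 2 from 4.37 to 5.79 and the input from -0.46 to 1.78. Both ChIP values lay above the input at 14 of 14 peaks, as at 2120 of 2120 control-only peaks. IR1 was found in 1 of the 14 and in 20 of the 64 overlapping peaks. Over all peaks under the limits it lay in 8.30% of control-only and 17.7% of overlapping ones. The count of 1 in 14 is too small to set against the first share.

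**Figure D4:**
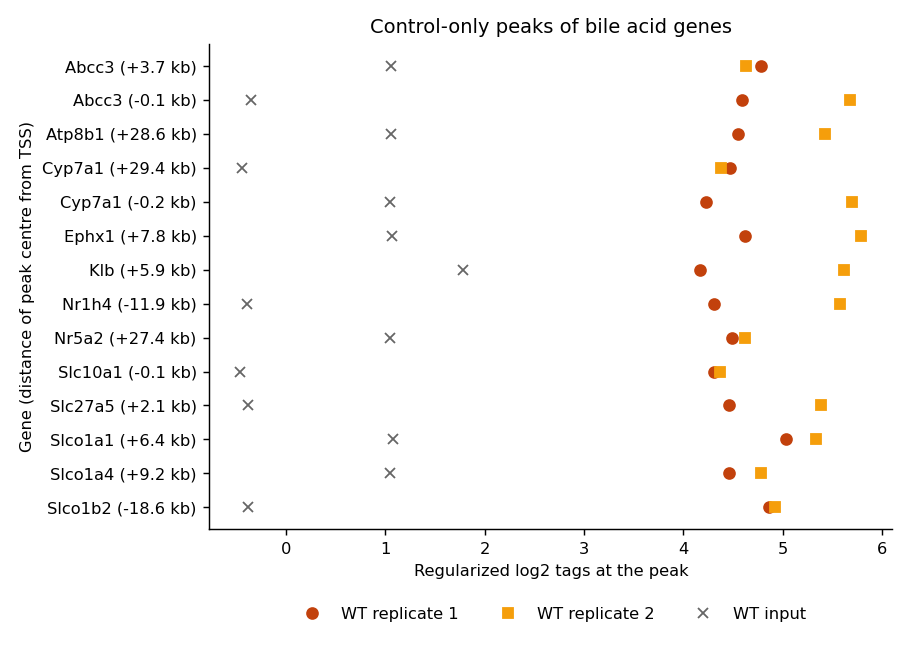
Regularized log2 tags of WT replicate 1, WT replicate 2 and WT input at each of the 14 control-only peaks of bile acid genes, labelled with the gene and the distance of the peak centre from the TSS. ChIP values lie between 4.17 and 5.79 and input values between -0.46 and 1.78, without overlap.

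In synthesis, Cyp7a1, the rate-limiting enzyme, had 2 control-only peaks and 1 overlapping peak. The peak in its promoter, on chromosome 4 at 6275684-6275894 and centred 158 bp upstream of the TSS, had 4.23 log2 tags in replicate 1, 5.69 in replicate 2 and 1.05 in the input (ChIP mean 4.96 ± 1.03, SD, n = 2). The libraries disagreed by more than 1 log2 unit there. The second, intergenic and 29401 bp downstream of the TSS at 6246125-6246335, had 4.46, 4.38 and -0.44. Its 2 ChIP values lay close together, but replicate 2 was estimated at only 6.23 tags there. That estimate was 15.5 at the promoter peak, and its median over control-only peaks was 10.98. The overlapping Cyp7a1 peak, intergenic at 6258155-6258365, had a WT score of 33.8 and an LKO score of 17.5. Slc27a5, which conjugates bile acids to coenzyme A, had 1 control-only peak in intron 2 with 4.46, 5.39 and -0.38, beside overlapping peaks with WT scores of 27.8 and 38.3.

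Among transporters, Slc10a1 encodes NTCP, the sodium-dependent uptake carrier of the sinusoidal membrane. Its promoter peak, on chromosome 12 at 80968058-80968268 and 84 bp upstream of the TSS, was control-only, with 4.31 log2 tags in replicate 1, 4.37 in replicate 2 and -0.46 in the input, and a score of 25.6, just inside the limit. Replicate 2 was estimated at only 6.18 tags at this promoter peak. A much stronger Slc10a1 peak 7334 bp upstream, at 80975934-80976144, overlapped an LKO peak and had a WT score of 173.5 and an LKO score of 73.1. The promoter stretches of Cyp7a1 (chr4:6275739-6275839) and Slc10a1 (chr12:80968113-80968213) are printed because these genes carry the rate-limiting synthesis and uptake steps. Below them stands the IR1 of the Slco1b2 peak (chr6:141610876-141610928), the only IR1 with at most 2 mismatches in the 14 peaks, and hexamers or the IR1 are in capitals.
Cyp7a1: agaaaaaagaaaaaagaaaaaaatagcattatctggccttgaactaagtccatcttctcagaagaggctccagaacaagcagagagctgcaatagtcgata
Slc10a1: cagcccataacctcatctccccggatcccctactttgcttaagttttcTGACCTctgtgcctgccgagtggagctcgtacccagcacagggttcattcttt
Slco1b2: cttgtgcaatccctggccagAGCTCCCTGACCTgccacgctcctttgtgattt

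The Cyp7a1 stretch has no AGGTCA hexamer on either strand, the Slc10a1 stretch has 1 on the minus strand, read as TGACCT, and the Slco1b2 site differs from IR1 at G3C and A6C. Slco1b2, an organic anion uptake carrier, had this 1 control-only peak 18556 bp upstream (4.86, 4.92 and -0.38) beside 4 overlapping peaks, whose WT scores ran from 51.1 to 92.7. The related carrier genes Slco1a1 and Slco1a4 had only control-only peaks under the limits. The peak in intron 2 of Slco1a1, on chromosome 6 at 141940499-141940709, had 5.04, 5.33 and 1.08 and a score of 37.9, the highest of the 14. No LKO peak was assigned to Slco1a1, and the nearest lay 71392 bp away. The Slco1a4 peak, in intron 2 within an LTR, had 4.46, 4.78 and 1.05, and the LKO list held 1 Slco1a4 peak elsewhere.

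Abcc3, which encodes the basolateral efflux pump MRP3, also had no LKO peak. Its promoter peak on chromosome 11 at 94392926-94393136 had 4.59 log2 tags in replicate 1, 5.68 in replicate 2 and -0.35 in the input (ChIP mean 5.13 ± 0.77, SD, n = 2). Its peak in intron 1 had 4.78, 4.63 and 1.06 (4.71 ± 0.11). The nearest LKO peak lay 60626 bp from the intronic peak. Ephx1, a microsomal epoxide hydrolase, had 1 control-only and 2 overlapping peaks, with 4.62, 5.79 and 1.07 at the former. Atp8b1, a canalicular phospholipid flippase, had 1 control-only peak in intron 1 with 4.55, 5.42 and 1.06, only 526 bp from an LKO peak, beside 5 overlapping peaks.

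In the feedback group, the receptor gene itself, Nr1h4, had its only peak under the limits control-only, in intron 1 within a SINE repeat on chromosome 10 at 89518447-89518657, with 4.30, 5.58 and -0.39. Nr5a2, encoding the nuclear receptor LRH-1 that drives Cyp7a1, had 1 control-only peak in intron 6 with 4.49, 4.62 and 1.05, beside 4 overlapping peaks with WT scores of 32.9 to 58.0. Klb, the FGF co-receptor beta-Klotho, had 1 control-only peak in intron 1 with 4.17, 5.62 and 1.78, the highest input of the 14, beside 2 overlapping peaks. The LKO list held at least 1 peak of Nr1h4, Nr5a2 and Klb, which for Nr1h4 was at another site, 34408 bp or more from the control-only peak. Of the 12 genes only Slco1a1 and Abcc3 had no LKO peak, beside 591 of all 1769 genes with a control-only peak.

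Among the gene lists with at least 14 peaks, control-only peaks were most frequent in fatty acid oxidation and in drug and steroid metabolism. Of 40 peaks under the limits at fatty acid oxidation genes, 18 were control-only (45%, 30.7 to 60.2%), and of 30 at drug and steroid metabolism genes 13 were (43.3%, 27.4 to 60.8%), beside 23.3% of all peaks. Of these 16 lists, the 2 named had intervals above the background. The intervals treat peaks as independent, although several peaks often fell on 1 gene. In fatty acid oxidation, 4 of 4 peaks of Fabp1 and 3 of 4 of Acadm were control-only. Peaks of the first list were weaker than most, with a median score of 35.6 against 40.6 over all peaks under the limits, while the second had a median of 45.7. Within the second list the control-only peaks were weak, with a median score of 28.8 against 75.3 for its overlapping peaks. Cholesterol synthesis had the smallest share of the 16, 8.70% (2 of 23, 2.42 to 26.8%), with peaks of Fdft1 and Dhcr7. The lists were chosen with earlier results of these data known, and these shares are descriptions without a test.

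**Figure D5:**
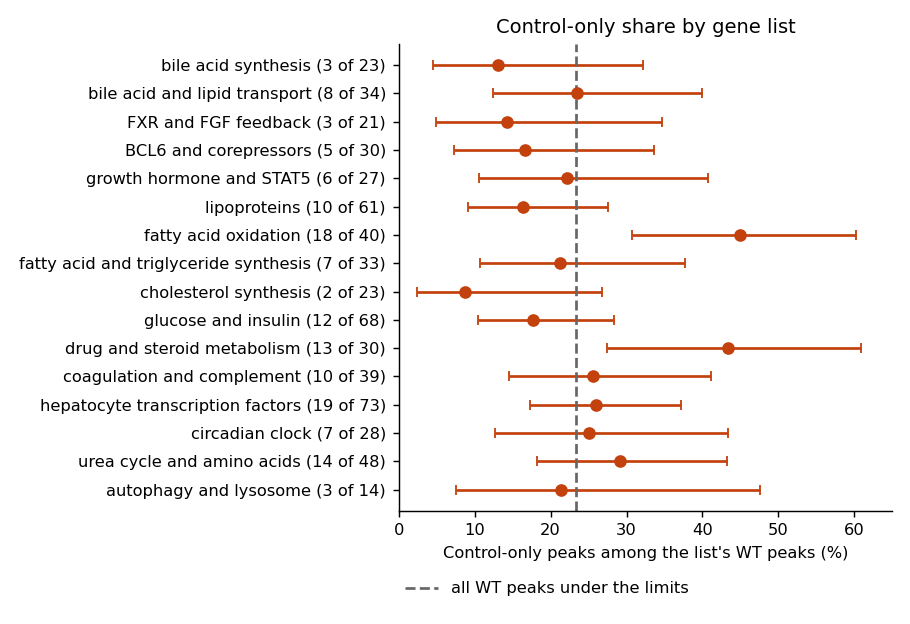
Share of control-only peaks among the WT peaks under the limits assigned to each gene list (%, points with 95% Wilson intervals, counts in brackets), for lists with at least 14 peaks, with the share over all such peaks, 23.3%, dashed. Fatty acid oxidation at 45% and drug and steroid metabolism at 43.3% lie to the right of the line with their intervals.

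The 18 control-only peaks of fatty acid oxidation fell on 8 of the 14 genes of that list with a peak. Fabp1, the liver fatty acid-binding protein, had 4, Ppara, the nuclear receptor that drives the pathway, and the acyl-CoA dehydrogenase gene Acadm had 3 each, and Acsl1, Lpin1 and the coactivator gene Ppargc1a had 2 each, with 1 at Ehhadh and at Plin2. The strongest lay 2694 bp upstream of Ppara on chromosome 15 at 85732765-85732975, with 5.72 log2 tags in replicate 1, 6.41 in replicate 2 and 1.12 in the input. That peak lay 28 bp from an LKO peak, as given above, the most upstream Fabp1 peak lay 139 bp from one, and the Acadm promoter peak, with 4.99, 5.41 and -0.33, lay 346 bp from one. An intronic Ppara peak lay 402 bp from one. With LKO peaks within 500 bp counted as shared, these peaks would not be control-only and the share of this list would be lower. The Fabp1 peaks spanned 26779 bp upstream to 4052 bp into the gene, where replicate 1 read 5.36, 5.45, 4.28 and 4.50 and replicate 2 read 5.62, 5.46, 5.02 and 5.67 in genome order. The Fabp1 promoter peak, 185 bp upstream, had a score of 25.1 and sat exactly at the limit. None of the 8 genes lacked an LKO peak, beside 591 of all 1769 genes with a control-only peak. Fabp1 and Acadm each had 1 LKO peak.

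A DR1 was found in 4 of these 18 peaks and IR1 in 1, beside DR1 in 3 and IR1 in 1 of the 22 overlapping peaks of the same list. At drug and steroid metabolism genes DR1 was found in 3 and IR1 in 2 of 13 control-only peaks, beside 2 and 2 of 17 overlapping peaks. These counts are too small to set against the DR1 share of 15.8% over all control-only peaks. The DR1 sites of Ppara (chr15:85732774-85732826), Fabp1 intron 3 (chr6:71203903-71203955), Cyp17a1 (chr19:46660219-46660271) and the Cyp3a25 promoter (chr5:146009769-146009821) are printed to show how close they come to the motif, with the 13 bases in capitals, on the plus strand.
Ppara: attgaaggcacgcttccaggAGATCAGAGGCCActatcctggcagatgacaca
Fabp1: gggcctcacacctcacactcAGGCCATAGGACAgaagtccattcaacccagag
Cyp17a1: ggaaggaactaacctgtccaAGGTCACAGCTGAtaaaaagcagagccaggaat
Cyp3a25: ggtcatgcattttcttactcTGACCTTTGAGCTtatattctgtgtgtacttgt

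The Cyp3a25 site, read on the minus strand, has 1 mismatch, written C11G on the plus strand, and the other printed sites have 2: G3A and T11C at Ppara, T4C and T11A at Fabp1, G10C and C12G at Cyp17a1. In drug and steroid metabolism, Cyp17a1, a steroid hydroxylase, had 3 of 3 peaks under the limits control-only and no LKO peak. The strongest, intergenic on chromosome 19 at 46660191-46660401, had 5.85 log2 tags in replicate 1, 5.91 in replicate 2 and 1.11 in the input, and the promoter peak had 4.38, 5.07 and 1.05. Nr1i3, the xenobiotic receptor CAR, had a single control-only peak 32 bp upstream of its TSS with 4.51, 4.57 and -0.43 and no LKO peak. The glucuronosyltransferase gene Ugt2b34 likewise had 1 promoter peak (4.35, 5.15 and -0.40) and no LKO peak. Nr1i2, the receptor PXR, had the strongest control-only peak of the list in intron 2, with a score of 69.8 and 6.05, 5.26 and 1.10, while the LKO list held 4 other Nr1i2 peaks. Cyp3a25 had 2 control-only peaks, and Cyp3a11, the main inducible CYP3A enzyme of mouse liver, had 1 (4.53, 5.07 and 1.06).

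Shares at genes of BCL6 action had intervals that included 23.3%. Of 30 peaks at Bcl6 and corepressor genes, 5 were control-only (16.7%, 7.34 to 33.6%). The strongest, nearest to the corepressor gene Bcor, on chromosome X and 80885 bp from the TSS, had 5.50, 6.02 and -0.25. In the growth hormone and STAT5 list 6 of 27 were control-only (22.2%, 10.6 to 40.8%), at Ghr, Stat5b, Igf1 and Igfbp3, with the strongest in intron 2 of Igf1 (5.22, 5.64 and 1.09).

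Other metabolic lists held control-only peaks at shares whose intervals included 23.3%. Urea cycle and amino acid genes had 14 of 48 (29.2%, 18.2 to 43.2%), led by an intergenic peak of Bhmt, the betaine-homocysteine methyltransferase, with a score of 61.2 and 5.71, 6.52 and 1.82, and Mat1a had 2 of 2 control-only and no LKO peak. Glucose and insulin genes had 12 of 68 (17.6%, 10.4 to 28.4%), led by intron 16 of Pygl, the liver glycogen phosphorylase, with 5.61, 6.02 and -0.24 and no LKO peak at the gene. Lipoprotein genes had 10 of 61 (16.4%, 9.16 to 27.6%), with the strongest control-only peak near Angptl8 (5.47, 6.15 and -0.25). Fatty acid and triglyceride synthesis had 7 of 33 (21.2%, 10.68 to 37.8%), led by the promoter of the desaturase gene Fads2 (5.34, 5.11 and 1.08), which lay 195 bp from an LKO peak. Coagulation and complement had 10 of 39 (25.6%, 14.6 to 41.1%), led by C8a (5.12, 5.19 and -0.34), and C9 had no LKO peak. The stronger control-only peak of cholesterol synthesis, at Dhcr7, had 5.18, 6.26 and -0.26.

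Among regulators, hepatocyte transcription factor genes had 19 of 73 peaks control-only (26.0%, 17.3 to 37.1%), near the 23.3% of all peaks, including 2 each at Foxa2, Cebpa, Esrrg and Thrb. The strongest control-only peak of these, 104274 bp upstream of the orphan receptor gene Esrrg in an LTR, had 5.66, 6.59 and -0.20. Circadian clock genes had 7 of 28 (25%, 12.7 to 43.4%), led by the promoter of the PAR-bZIP factor gene Dbp with 4.91, 4.60 and -0.40. Autophagy and lysosome genes had 3 of 14 (21.4%, 7.57 to 47.6%), and both intervals included 23.3%. The autophagy peaks were led by the promoter of Atg10 with 4.94, 5.77 and -0.32. Genes that mark other liver cell types were counted in short lists. A peak under the limits was assigned to 1 of 12 Kupffer and immune, 1 of 14 stellate and 3 of 12 endothelial markers. Control-only peaks were 0 of 2 at Kupffer and immune markers, 0 of 1 at stellate markers and 2 of 4 at endothelial markers. The endothelial example, 1707 bp upstream of Oit3, had 4.36, 5.52 and 1.06.

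Gene families named in the authors' gene descriptions were counted for 15 words chosen after the tables were seen. Mitochondrial proteins had 41 of 119 peaks control-only (34.5%, 26.5 to 43.4%), cytochrome P450 genes 19 of 56 (33.9%, 22.9 to 47.0%), Kruppel-like factors 12 of 32 (37.5%, 22.9 to 54.7%) and solute carriers 77 of 271 (28.4%, 23.4 to 34.1%). ATP-binding cassette transporters had the smallest share, 4 of 34 (11.8%, 4.67 to 26.6%). Zinc finger proteins at 21.7% and kinases at 21.8% lay near the background of 23.3%. Protein-coding genes were nearest to 84.6% (83.0 to 86.1%) of control-only and 85.6% (84.7 to 86.4%) of overlapping peaks.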

How the data were processed

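FXR ChIP-seq of mouse liver was processed by the authors before deposit. Per the labels and methods, chromatin was crosslinked with DSG and formaldehyde and precipitated with FXR antibody E4B8P, and single-end reads were aligned to mm10 as unique alignments. The submitters' processing notes name Bowtie 1.2 and HOMER 4.10. Both ChIP libraries of a genotype were pooled by the authors for peak calling, per the file headers, and peaks were kept where the libraries exceeded input in DESeq2 (version not given in the sources used here) at an adjusted p-value of 0.05 and a log2 fold of 1. All peaks of a list had thus passed that filter, and no list per replicate was used.

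The deposited Peak Score is a signal, pooled tags per 10000000. The deposited values per library are not whole and some are negative, so they were taken as regularized log2 tags, estimated for the 3 libraries of each table together, which draws low values towards each other. Tables were normalized separately, so no library value was compared between genotypes. The deposited focus ratio is a fraction that says how narrowly tags sit, and the deposited distance to the TSS is in bp. Columns of the authors' own comparisons (fold changes and p-values of ChIP against input) were not used. Tags per library were estimated from the log2 value and the library totals.

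Peaks, gene lists and motifs were chosen with earlier results of these data known. Overlap needed 1 bp. Shares have 95% Wilson intervals, and no test was run, since the members were chosen by the values themselves and each list comes from pooled libraries. Motifs were sought on both strands within 100 bp of the centre in GRCm38.p6, with windows 2 kb away as background. Named peaks were those of the 3 bile acid lists, the 10 highest scores, the 5 genes with most members, the strongest of each other list, 3 on each side of the score limit, and the closest IR1 sites. All members of the fatty acid oxidation and the drug and steroid metabolism lists, the densest stretches and the gene families were added after seeing the data. Some named peaks, and 1 list of cell markers, are not reported here. Printed stretches avoid untranslated regions of GENCODE M21. Python 3.11.15, numpy 2.4.6, pandas 2.3.3, statsmodels 0.14.6 and matplotlib 3.10.9 were used, and the overlap and motif code was tested on simulated data.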

Additional observations from a re-analysis of the deposited data

How the results depend on the processing

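Of 86 recomputed values, 74 stayed within the interval of the value reported, or within 1.5 times of the count, and 12 did not. The number of control-only peaks was 326 with Peak Score at or above the 75th percentile and 1282 with input at or under the 75th percentile, both by construction. Under the score limit at the 75th percentile IR1 lay in 12.3% of control-only and 21.3% of overlapping peaks, and with at most 1 mismatch in 1.08% and 3.86%. Promoters held 15.1% and 12.8% with no input limit, and 16.9% and 16.7% when counted as centres within 1 kb of a TSS. With input at or under the 75th percentile, promoters held 10.6% of control-only peaks, and intergenic sequence held 39.8%. The cause was not tested. The control-only IR1 share was the lower in 13 of 13 settings and the intergenic share the higher in 11 of 11, while the promoter share was the higher in 11 of 12 settings, the exception being input at or under the 75th percentile.

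Leaving out a WT replicate in the strength limit gave 2110 to 2512 control-only peaks, IR1 in 8.08 to 8.10% of them and promoters in 11.6 to 11.7%. Leaving out peaks in which repeats cover most of the window, chosen after seeing the data, moved no value past its interval. No paired analysis was possible because each list was called on pooled libraries, so that its counts and shares have no value per replicate number. The depth of WT replicate 2 limits statements about single peaks, and the lists say nothing about LKO signal under the calling limits. Genes are the nearest by annotation, which does not show that a peak acts on them.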
